A study of Homo sapiens with 8 samples.

Results

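Oxidative phosphorylation in the inner mitochondrial membrane is built from subunits of 2 genomes, and the genes described here are those encoded in the nucleus. The 54 genes comprise 24 of complex I (NDUF genes), 4 of complex II (SDH genes), 6 of complex III (UQCR genes and CYC1), the electron carrier cytochrome c (CYCS), 10 of complex IV (COX genes) and 9 of complex V (ATP synthase). Array features were matched to them by symbol alone, where the platform annotation gave one of these names or a former name of the same gene. The genes themselves were chosen with earlier results of these data known. Of the 54 genes, 53 were tested among the 17910 genes of the array that could be tested. SDHB, the iron-sulphur subunit of complex II, was not analysed here, and nor were the 13 subunits encoded in mitochondrial DNA.

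Complexes I and II take electrons from NADH and succinate and pass them through ubiquinone to complex III, cytochrome c carries them on to complex IV, and complex IV hands them to oxygen. Complexes I, III and IV pump protons while they do so, and complex V uses the returning protons to make ATP. Absorptive cells of the gut epithelium are rich in mitochondria, and the nuclear genes of the chain are commonly described as regulated together through the transcription factors NRF1, YY1 and the GABP member of the ETS family.

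Gene expression was measured in monolayers of Caco-2, an epithelial line from a human colorectal adenocarcinoma that turns enterocyte-like once confluent, which were grown for 18 days. The MB452 group had been exposed for 10 h to *L. plantarum* MB452, a bacterium isolated from the probiotic VSL#3, in M199 medium with non-essential amino acids, the suspension having an optical density of 0.9. The control group received the same medium without bacteria. Both groups were 1 cell line grown alone, with no other cell type, microbiota or mucus layer of an intestine, and each had 2 pools, A and B, of RNA from 3 wells. Cy5-labelled RNA of each pool was hybridised on its own Agilent slide against Cy3-labelled RNA from all 12 wells, and each slide was scanned at a high and a low setting.

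Values are log2 ratios of a pool to the reference, so they show differences between pools but not how much RNA a gene has, and levels cannot be set between genes. The fold change is the mean of the MB452 pools minus the mean of the control pools on the log2 scale. The threshold, that of the study's methods, was a fold change above 1.2 together with a moderated p below 0.05 before adjustment, computed in limma. All p-values measure only the spread between these pools, moderated over all genes, and with 2 pools in each group no gene of the array reached an adjusted p under 0.05 (the lowest was 0.164, and 1232 genes had an unadjusted p under 0.05). Equal amounts of RNA were labelled and each column was centred, so a ratio reflects a gene's share of the RNA. In a bulk RNA sample, fewer cells with a gene's RNA and less of that RNA per cell cannot be told apart. Bright features repeat 1 saturated value in the high scan. Where any slide had it the low scan alone was used, and a feature that also had it in a low scan was left out. Over 41731 features the correlation was 0.667 between the MB452 pools and 0.403 between the control pools, less than MB452 A with control A (0.585) or control B (0.453). These features share slides and reference. Of 14 named epithelial markers, 8, among them VIL1, CDH1, EPCAM and KRT8, were bright enough to have the repeated value in a high scan, against 1 of 10 markers of other cell types (TFF3). Of the 10 epithelial markers tested, 6 were negative and 4 positive. VIL1 (0.06) and KRT18 (0.10) had both MB452 pools above both control pools (all genes 17.9%). LCT (-0.41), ALPI (-0.08) and FABP1 had both below (30.0%, all genes 19.5%). FABP1, a fatty acid binding protein of enterocytes, was the only marker past the threshold (log2 fold change -0.39, SE 0.14). It had log2 ratios of -0.38 and 0.01 in MB452 pools A and B, against 0.26 and 0.16 in control pools A and B. FABP1 was among the 8 bright markers, so its 1 feature was read in the low scan alone. In that scan of MB452 pool A the repeated value, after centring, was -0.752. The part of FABP1 in the results below was not tested.

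To show what the nuclear genes of the chain carry in front of their starts, promoters of 4 members are printed, from the RefSeq promoter table of GRCh38.p14. They belong to a pair of genes past the threshold (NDUFS6 and UQCRQ), the member with the lowest p (COX5B) and the complex IV member with the largest positive difference (COX7B). Each runs 5′ to 3′ on the plus strand from 170 bases before to 30 bases after the annotated start, and capitals mark the letters of the NRF1 (GCGCATGC), ETS family (CCGGAAG) and TATA box (TATAAA) motifs on either strand.
NDUFS6, chr5:1801237-1801436: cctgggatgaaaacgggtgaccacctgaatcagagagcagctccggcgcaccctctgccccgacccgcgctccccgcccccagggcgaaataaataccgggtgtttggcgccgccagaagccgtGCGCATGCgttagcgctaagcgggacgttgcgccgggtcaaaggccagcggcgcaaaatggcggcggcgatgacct
UQCRQ, chr5:132866472-132866671: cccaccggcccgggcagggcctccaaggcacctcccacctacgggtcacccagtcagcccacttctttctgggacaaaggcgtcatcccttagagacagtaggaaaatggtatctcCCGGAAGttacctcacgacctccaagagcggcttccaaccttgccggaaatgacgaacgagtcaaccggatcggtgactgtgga
COX5B, chr2:97645892-97646091: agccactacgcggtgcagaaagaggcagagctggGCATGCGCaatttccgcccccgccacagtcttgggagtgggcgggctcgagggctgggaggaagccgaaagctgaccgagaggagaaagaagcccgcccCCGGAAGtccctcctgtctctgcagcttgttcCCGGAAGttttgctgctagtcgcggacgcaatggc
COX7B, chrX:77899298-77899497: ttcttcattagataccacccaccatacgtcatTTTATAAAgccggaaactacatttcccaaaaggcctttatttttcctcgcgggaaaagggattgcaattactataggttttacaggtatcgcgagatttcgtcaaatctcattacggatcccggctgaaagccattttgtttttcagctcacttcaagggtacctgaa
The NRF1 letters began at position -46 of NDUFS6 and, on the other strand, at -136 of COX5B. COX5B also held the ETS letters at -37 and -5, and UQCRQ held them at -54. COX7B held none of these and had overlapping TATA letters, on both strands, from -138.

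Across the members the NRF1, ETS family, YY1 and Sp1 letters were more frequent than over all genes, and the CCAAT and TATA letters less so. Windows from 250 bases before to 50 after the start were found for 43 of the 53 members, 7 of which had more than 1 window, and both strands were searched. The NRF1 letters stood in 10 of the 43 members (23.3%) and in 3.68% of all 27305 genes with a window. The ETS letters stood in 13 members (30.2%, all genes 12.2%) and the YY1 letters AAGATGGC in 8 (18.6%, all genes 3.52%). Any of these 3 motifs was present in 25 members (58.1%), against 17.6% of all genes. The Sp1 letters GGGCGG stood in 27 members (62.8%, all genes 48.3%), CCAAT in 13 (30.2%, all genes 39.7%) and TATAAA in 5 (11.6%, all genes 14%). The median log2 fold change was -0.16 in members with the NRF1 letters and -0.12 in those without, -0.10 and -0.14 for the ETS letters, and -0.12 and -0.13 for the YY1 letters. For the Sp1 letters it was -0.15 and -0.10, for CCAAT -0.11 and -0.14, and for TATAAA -0.07 and -0.14. None of these differences was tested. The motifs are matches of letters and not binding sites.

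Most nuclear genes of the chain had slightly lower ratios with MB452. The median log2 fold change of the 53 members was -0.13, beside -0.0086 over all genes, and 51 of the 53 (96.2%) were negative, beside 54.3% of all genes. Expression of 3 members, NDUFS6, NDUFC2 and UQCRQ, fell past the threshold (5.66%, all genes 1.02%) and that of 0 rose (all genes 1.09%), while 50 did not pass. From the high scan alone 0 of 42 members were lower past the threshold (all genes 1.01%). With repeated values kept 1 of 53 was (all genes 0.868%). Without control pool A the median log2 fold change of the members was -0.089. Without the fold minimum, 15 were lower at an unadjusted p under 0.05 (28.3%, all genes 3.67%). Both MB452 pools lay below both control pools for 32 members (60.4%, all genes 19.5%) and above both for 1, SDHA (all genes 17.9%). The lowest adjusted p of a member was 0.598. The median log2 ratio of the members was 0.11 and 0.02 in MB452 pools A and B, against 0.22 and 0.18 in control pools A and B, so the groups did not overlap in this median. Members are not replicates of the exposure, and all share the same 4 slides.

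**Figure D1:**
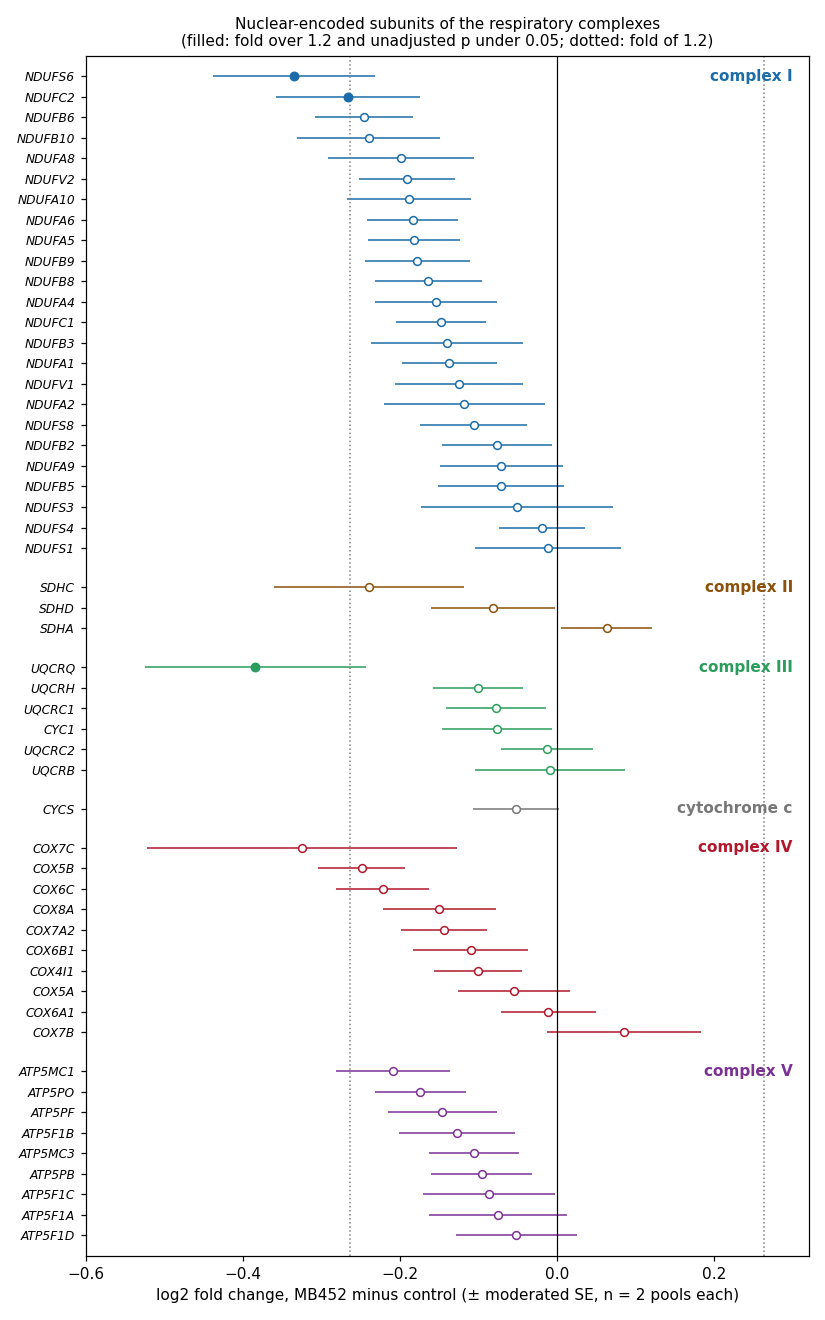
The log2 fold change of each of the 53 members, MB452 minus control, with its moderated standard error (n = 2 pools in each group), grouped by complex and ordered by size, where filled points passed the threshold and dotted lines mark a fold of 1.2. All 24 complex I genes and all 9 complex V genes lie left of 0, and COX7B and SDHA are the 2 members to its right.

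Bright features were frequent among the members, and over the whole array most of them had negative differences. Of the 82 member features, 22 (26.8%) had the repeated value in a high scan, beside 3.53% of all features. From these, 20 used the low scan alone and 2, a feature of COX6A1 and a feature of ATP5MC3, were left out. The 20 had a median log2 fold change of -0.15 and all 20 were negative. Over all 1152 features that used the low scan alone the median was -0.055, with 66.5% negative and 5.03% lower past the threshold, against -0.003, 51.3% and 0.818% over the 40579 that used both scans. In the low scan of MB452 pool A the repeated value itself, on the deposited scale, was -0.744, against -0.053 in MB452 pool B, -0.201 in control pool A and -0.084 in control pool B. The part of this shift in the members' differences was not tested. The 60 member features measured in both scans had a median of -0.10 when read in the high scan and -0.12 when read in the low one. In them, 43 were negative in both scans, 7 positive in both and 10 of opposite sign.

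**Figure D2:**
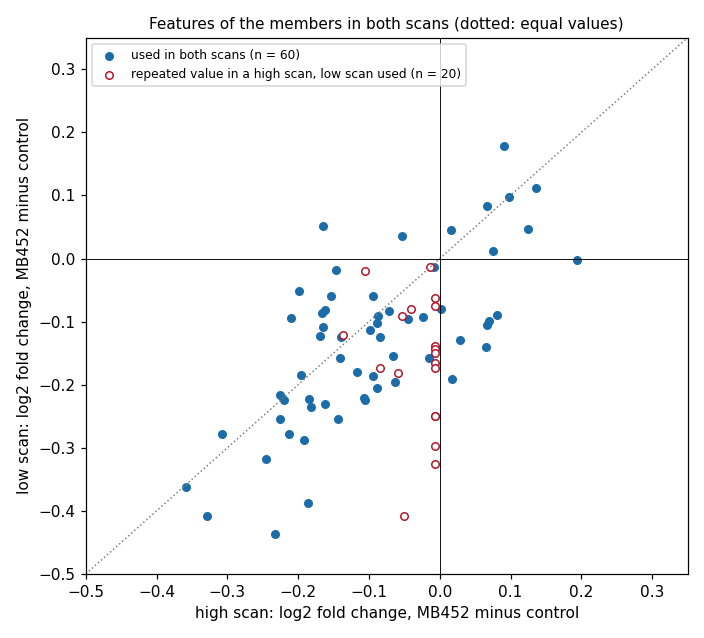
The log2 fold change of member features in the high scan (x axis) and the low scan (y axis), with filled points for the 60 features measured in both scans and open points for the 20 that used the low scan alone. Most filled points lie at the lower left, where both scans are negative, and the open points with the repeated value on all 4 slides stand at -0.007 on the x axis, while those with it on fewer slides lie between -0.137 and -0.014.

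In complex I all 24 genes were negative with a median of -0.15, and 2 passed the threshold (8.33%, all genes 1.02%). Both MB452 pools lay below both control pools for 16 (66.7%, all genes 19.5%). At an unadjusted p under 0.05, 9 were lower (37.5%, all genes 3.67%). The log2 fold changes lay between -0.34 (NDUFS6) and -0.01 (NDUFS1). Of its 38 features, 5 had the repeated value in a high scan, against 22 of the 82 member features and 3.53% of all features. The 5 core subunits had a median of -0.11, and the 19 supernumerary subunits, which surround and stabilise the core, a median of -0.16. The difference between these medians was not tested.

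NDUFS6 encodes a zinc-binding accessory subunit of the matrix arm. Its log2 ratios were 0.09 and 0.04 in MB452 pools A and B, against 0.54 and 0.26 in control pools A and B. The groups did not overlap, the MB452 pools lay close together and control A was the highest. Its log2 fold change was -0.34 (SE 0.10, unadjusted p = 0.021, adjusted p = 0.659 in limma), from a single feature that read -0.23 when scanned high and -0.44 when scanned low. NDUFC2, a membrane arm subunit, had -0.11 and -0.02 in MB452 pools A and B, against 0.31 and 0.09 in control pools A and B. Again control A was the highest and the groups did not overlap. Its log2 fold change was -0.27 (SE 0.092, unadjusted p = 0.032, adjusted p = 0.694 in limma), just over the fold minimum. Its features were both negative, at -0.25 and -0.28. Without control pool A the log2 fold change was -0.19 for NDUFS6 and -0.15 for NDUFC2, neither past the threshold, and both calls were also lost without MB452 pool A (-0.36 and -0.22) or B (-0.31 for each). They were lost from the high scan alone too (-0.23 and -0.25), that of NDUFS6 after quantile scaling (-0.37, unadjusted p = 0.0514 in limma) and that of NDUFC2 with repeated values kept (-0.21).

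NDUFB6 and NDUFB10 lay just short of the fold minimum. NDUFB6, in the membrane arm, had log2 ratios of 0.19 and 0.11 in MB452 pools A and B, against 0.42 and 0.37 in control pools A and B. The gap between the groups was wider than the spread in either. Its log2 fold change of -0.25 (SE 0.062) had the lowest p of the complex, 0.0093 unadjusted in limma. NDUFB10, a subunit of the same arm, had 0.13 and -0.002 in MB452 pools A and B, against 0.40 and 0.20 in control pools A and B, with a log2 fold change of -0.24. The other members at an unadjusted p under 0.05 were NDUFV2, the core subunit next to the flavin site (-0.19), NDUFA6 (-0.18), NDUFA5 (-0.18), NDUFB9 (-0.18) and NDUFC1 (-0.15).

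Differences were uneven within the catalytic core. NDUFV2 had 0.19 and 0.21 in MB452 pools A and B, against 0.43 and 0.35 in control pools A and B, which did not overlap. NDUFS1, the largest core subunit, had 0.34 and 0.09 in MB452 pools A and B, against 0.22 and 0.24 in control pools A and B. For that gene the MB452 pools straddled the control pools, and the log2 fold change was -0.01 (SE 0.093). NDUFS3 (-0.05) and NDUFV1, which binds NADH and the flavin (-0.13), had overlapping pools as well. NDUFS8, an iron-sulphur subunit, was at -0.11 with both MB452 pools below both control pools. Among the remaining accessory subunits, NDUFA8 (-0.20), NDUFA10 (-0.19), NDUFB8 (-0.16), NDUFA4 (-0.15), NDUFA1 (-0.14) and NDUFS4 (-0.02) had both MB452 pools below both control pools without reaching that p. The RefSeq features of NDUFA10 were at -0.14 and -0.06, and a feature not on a RefSeq transcript at -0.37. That feature had -0.07 and 0.05 in MB452 pools A and B, against 0.06 and 0.66 in control pools A and B. NDUFB3 (-0.14), NDUFA2 (-0.12), NDUFB2 (-0.08), NDUFA9 (-0.07) and NDUFB5 (-0.07) had pools that overlapped. NDUFA4 is carried in the current annotation as COXFA4 and is now assigned to complex IV.

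Of complex II, which is also an enzyme of the citric acid cycle, 3 genes were tested. Their median was -0.08, 2 were negative and 0 passed the threshold. Without MB452 pool B the median was 0.01. SDHA, the flavoprotein and a reference gene of the quantitative PCR in this study, had 0.10 and 0.08 in MB452 pools A and B, against 0.06 and -0.004 in control pools A and B. No other member had both MB452 pools higher than both control pools, and its log2 fold change was 0.06 (SE 0.058, unadjusted p = 0.324 in limma). SDHC, a membrane anchor, had -0.02 and -0.01 in MB452 pools A and B, against 0.05 and 0.40 in control pools A and B. Its difference of -0.24 (SE 0.12) came mostly from control B, without which it was -0.06. The other anchor, SDHD, had 0.27 and 0.09 in MB452 pools A and B, against 0.27 and 0.26 in control pools A and B, with a log2 fold change of -0.08 (SE 0.079).

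All 6 genes of complex III were negative, with a median of -0.08, and 1 fell past the threshold (16.7%, all genes 1.02%). UQCRQ, a small accessory subunit, had the largest negative difference of all members. Its log2 ratios were -0.04 and -0.02 in MB452 pools A and B, against 0.15 and 0.57 in control pools A and B. The groups did not overlap, and control B stood well above control A. Its log2 fold change was -0.38 (SE 0.14, unadjusted p = 0.039, adjusted p = 0.705 in limma). Both of its features were negative but differed in how firmly. The first, on the RefSeq transcript and read in the low scan, had 0.25 and 0.09 in MB452 pools A and B, against 0.55 and 0.60 in control pools A and B (log2 fold change -0.41, SE 0.079). The second, placed on an expressed sequence tag, had -0.32 and -0.12 in MB452 pools A and B, against -0.25 and 0.54 in control pools A and B, and its difference of -0.36 (SE 0.26) rested on control B. For the gene, the value without control pool B was -0.17, and the call was lost there and also without MB452 pool A (-0.37) or B (-0.40). It was lost as well with repeated values kept (-0.30), with those values masked slide by slide (-0.30, unadjusted p = 0.173 in limma), from the high scan alone (-0.36) and with bright features left out (-0.36).

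The other complex III genes moved little. UQCRB, which binds ubiquinone, had 0.60 and 0.38 in MB452 pools A and B, against 0.44 and 0.56 in control pools A and B. The groups overlapped and the difference was the smallest of the complex, -0.01 (SE 0.095). UQCRH, the hinge protein, was at -0.10 with both MB452 pools below both control pools. The core proteins UQCRC1 (-0.08) and UQCRC2 (-0.01) and the cytochrome c1 gene CYC1 (-0.08) had pools that overlapped. CYCS, the mobile carrier, had 0.11 and 0.07 in MB452 pools A and B, against 0.14 and 0.13 in control pools A and B, a difference of -0.05 (SE 0.055).

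In complex IV, 9 of 10 genes were negative, with a median of -0.13. None of the 10 passed the threshold, although 3 were lower at an unadjusted p under 0.05 (30.0%, all genes 3.67%). Both MB452 pools lay below both control pools for 6 (60.0%, all genes 19.5%). All 10 are structural subunits around the catalytic core that mitochondrial DNA encodes. COX5B, a zinc-binding subunit on the matrix side, had -0.04 and -0.06 in MB452 pools A and B, against 0.22 and 0.18 in control pools A and B. The pools of each group lay within a narrow range and far from the other group. Its log2 fold change was -0.25 (SE 0.056), a fold of 1.19, with an unadjusted p of 0.00597 in limma, the lowest of the 53 members. Its feature was bright, so this value comes from the low scan alone. COX6C had the highest ratios of all members, 0.61 and 0.55 in MB452 pools A and B, against 0.82 and 0.78 in control pools A and B. Its groups were well apart, and the difference was nearly the same at both settings, -0.22 in the high and -0.23 in the low scan.

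The largest negative value of the complex rested on 1 pool. COX7C had -0.68 and -0.06 in MB452 pools A and B, against -0.02 and -0.06 in control pools A and B. MB452 B stood between the control pools and MB452 A alone was low. That value was read in the low scan of MB452 A, whose repeated value after centring was -0.752. The log2 fold change of -0.33 (SE 0.20) was -0.02 without MB452 pool A, and -0.63 and past the threshold without MB452 pool B. COX7B had the largest positive difference of all members, with 0.52 and 0.30 in MB452 pools A and B, against 0.25 and 0.40 in control pools A and B. Its groups overlapped (log2 fold change 0.09, SE 0.098), and without MB452 pool A the difference was -0.03.

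COX7A2 was the remaining gene at an unadjusted p under 0.05 (-0.14). COX8A (-0.15), COX6B1 (-0.11) and COX4I1, which binds ATP and helps to set the rate of the enzyme (-0.10), had both MB452 pools below both control pools, and COX5A (-0.06) and COX6A1 (-0.01) overlapped. Complex IV had the largest share of bright features, 9 of 14. From the high scan alone, or with every feature that had the repeated value left out, 5 of its genes could be tested and their median was -0.008 and -0.011. The other 5 genes, COX5A, COX5B, COX7A2, COX7C and COX8A, were read in the low scan alone.

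**Figure D3:**
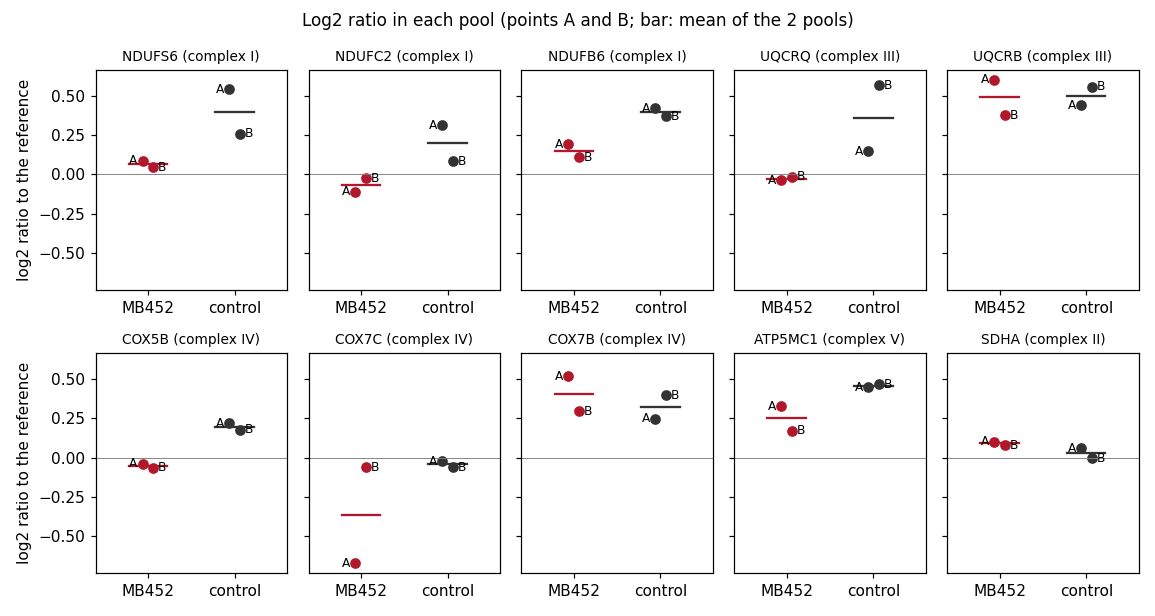
Log2 ratios to the reference in each pool for 10 members, with MB452 left and control right, points for pools A and B and a bar at their mean. NDUFS6, NDUFC2, UQCRQ, NDUFB6 and COX5B have no overlap between the groups, while for COX7C only MB452 pool A stands apart.

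All 9 genes of complex V were negative, with a median of -0.11. None passed the threshold, and 2 were lower at an unadjusted p under 0.05 (22.2%, all genes 3.67%). Both MB452 pools lay below both control pools for 6 (66.7%, all genes 19.5%). ATP5MC1, a gene of the c-ring that turns as protons pass, had 0.33 and 0.17 in MB452 pools A and B, against 0.45 and 0.47 in control pools A and B. The control pools lay together above both MB452 pools, and the log2 fold change was -0.21 (SE 0.073, unadjusted p = 0.033, adjusted p = 0.694 in limma). Without MB452 pool A it was -0.29 and past the threshold. ATP5MC3, which encodes the same mature protein, was at -0.11.

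In the peripheral stalk, which holds the head still, all 3 genes had both MB452 pools below both control pools (all genes 19.5%). ATP5PO had 0.05 and -0.003 in MB452 pools A and B, against 0.17 and 0.22 in control pools A and B (log2 fold change -0.17, SE 0.058). ATP5PF was at -0.15 and ATP5PB at -0.10. The F1 portion, where ATP is made, had a median of -0.08. In it ATP5F1B, the catalytic beta subunit, was at -0.13 with both MB452 pools below both control pools, and the pools overlapped for ATP5F1C (-0.09), ATP5F1A (-0.08) and ATP5F1D. ATP5F1D, the delta subunit, had the smallest difference of the complex, with 0.08 and -0.03 in MB452 pools A and B, against 0.01 and 0.15 in control pools A and B (log2 fold change -0.05, SE 0.077).

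Of the members, 20 had more than 1 feature, and in 15 all features had the same sign. The 5 whose features differed in sign were COX4I1, CYCS, NDUFB2, NDUFS4 and SDHD. COX4I1 had 0.07 and 0.08 in MB452 pools A and B, against 0.20 and 0.16 in control pools A and B as a gene, without overlap. Its log2 fold change ranged between -0.30 and 0.08 over 3 features. The positive one carried the accession of a cDNA clone and not of RefSeq. The lowest one was bright and read in the low scan alone. It had -0.374 and -0.035 in MB452 pools A and B, against 0.142 and 0.047 in control pools A and B. The other RefSeq feature, also read in the low scan alone, was at -0.08 with overlapping pools. NDUFB2 had 0.10 and 0.16 in MB452 pools A and B, against 0.27 and 0.14 in control pools A and B, with MB452 B above control B. Its log2 fold change was -0.29 in the RefSeq feature and 0.14 in one placed on an expressed sequence tag. SDHD, whose pools are given above, ranged between -0.22 and 0.12 over 5 features, and the positive one again came from an expressed sequence tag. NDUFS4 had 0.07 and 0.10 in MB452 pools A and B, against 0.11 and 0.11 in control pools A and B, groups that nearly met. Its features were at -0.08 and 0.04, and CYCS ranged between -0.13 and 0.10 over 3 features of the same transcript. Taken one by one, 72 of the 80 member features tested were negative and 5, in NDUFA5, NDUFB2, NDUFC2, NDUFS6 and UQCRQ, were lower past the threshold (all features 0.935%). Processed copies of many of these genes lie elsewhere in the genome, so cross-hybridisation to near-identical transcripts is possible.

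The other nuclear genes of the pathway were set beside the members from lists of textbook membership. Of 30 further subunits tested, 27 were negative (90.0%, all genes 54.3%), with a median of -0.13. ATP5MG, a membrane subunit of the ATP synthase, was the 1 that fell past the threshold (3.33%, all genes 1.02%). It had 0.01 and 0.10 in MB452 pools A and B, against 0.40 and 0.26 in control pools A and B. Its log2 fold change was -0.27 (SE 0.074). Of 46 assembly factors, which build the complexes without staying in them, 38 were negative (82.6%, all genes 54.3%) with a median of -0.10. Past the threshold, 2 fell (4.35%, all genes 1.02%). TMEM126B of complex I had 0.17 and -0.02 in MB452 pools A and B, against 0.36 and 0.37 in control pools A and B (log2 fold change -0.29, SE 0.080). SDHAF3 of complex II had 0.07 and -0.03 in MB452 pools A and B, against 0.22 and 0.35 in control pools A and B (log2 fold change -0.26, SE 0.073). The groups did not overlap for either gene.

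Regulators of the chain, that is transcription factors, coactivators and proteins that copy or transcribe mitochondrial DNA, were mostly positive. Of 15 tested, 10 were positive, the median was 0.11 and 0 passed the threshold in either direction. Both MB452 pools lay above both control pools for 7 (all genes 17.9%). They lay below for 2 (13.3%, all genes 19.5%), TFAM (-0.11) and TFB1M (-0.14). The factors of the NRF1, ETS family and YY1 motifs are named here after their values were seen. YY1 had 0.16 and 0.19 in MB452 pools A and B, against -0.04 and -0.07 in control pools A and B (log2 fold change 0.23, SE 0.056), just under the fold minimum. GABPA, the DNA-binding part of GABP, was at 0.11 (SE 0.062) and its partner GABPB1 at 0.18 (SE 0.063). NRF1 was at -0.003 (SE 0.058), with overlapping pools.

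Mitochondrial ribosomal proteins, which make the subunits encoded in mitochondrial DNA, were mostly negative too. Of 76 tested, 62 were negative (81.6%, all genes 54.3%) with a median of -0.10, and 9 fell past the threshold (11.8%, all genes 1.02%). The largest of these falls were in MRPS7, MRPS28, MRPL28 and MRPL12. MRPS7 of the small subunit had -0.36 and -0.39 in MB452 pools A and B, against 0.05 and -0.12 in control pools A and B (log2 fold change -0.34, SE 0.077). MRPS28, also of the small subunit, had -0.02 and -0.10 in MB452 pools A and B, against 0.33 and 0.24 in control pools A and B (log2 fold change -0.34, SE 0.066). In both the groups lay apart. MRPL28 of the large subunit had -0.29 and -0.26 in MB452 pools A and B, against 0.12 and 0.002 in control pools A and B (log2 fold change -0.33, SE 0.065). MRPL12, of the large subunit too, had -0.03 and -0.18 in MB452 pools A and B, against 0.26 and 0.17 in control pools A and B (log2 fold change -0.32, SE 0.077). The groups did not overlap for either of these genes. The citric acid cycle genes outside complex II had 7 of 10 negative with a median of -0.05, and the carriers and porins of the mitochondrial membranes 9 of 10 with a median of -0.06, with 0 past the threshold in each. In glycolysis 9 of 16 genes were negative, the median was -0.02 and 0 passed the threshold. Both MB452 pools lay below both control pools for 4 (25.0%, all genes 19.5%) and above for 4 (all genes 17.9%). No difference between these lists was tested.

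**Figure D4:**
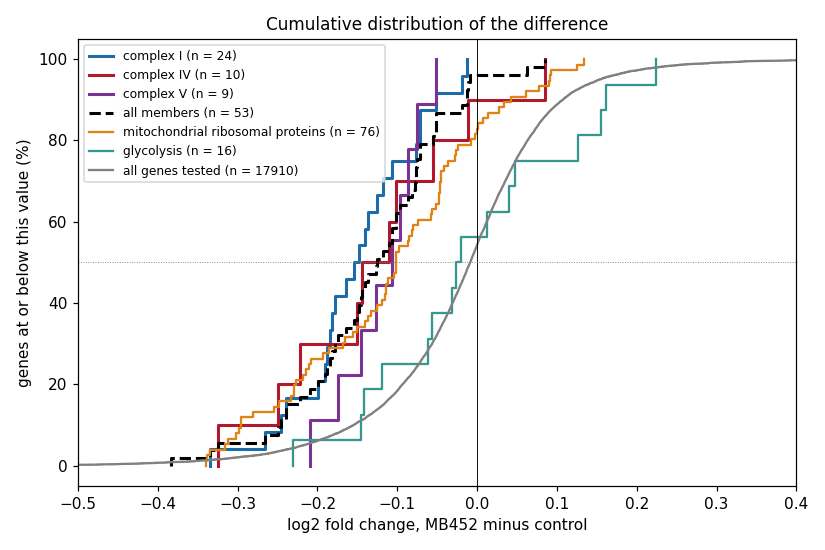
Cumulative share of genes (y axis, percent) at or below each log2 fold change, MB452 minus control (x axis), for complexes I, IV and V, all 53 members, 76 mitochondrial ribosomal proteins, 16 glycolysis genes and all 17910 genes tested. The curves of the members and of the mitochondrial ribosomal proteins lie left of that of all genes, and the glycolysis curve crosses 50% near it.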

How the data were processed

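RNA of 2 MB452 pools and 2 control pools of Caco-2 cells was hybridised on 4 two-colour Agilent arrays. The authors scanned each slide at 2 settings, quantified spots in GenePix and normalized each array by loess in limma (named in the submitters' processing notes with no version). What the authors deposited are log2 ratios, the pool in Cy5 over the reference in Cy3. No source used here states the base of the logarithm, which was read as 2 from the size of the differences, and the direction follows the dyes. Of the value columns, 8 were used and 0 left out. The methods and protocol describe the reference as RNA of all wells, while its short label names a group.

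In R 4.3.3 with limma 3.58.1, each column was centred on its median (0.0046 to 0.0169 before), the scans of a slide were averaged, and features measured on all 4 slides were fitted. A feature with the repeated value in any high scan (1563 of 44290) used the low scan, and one with it in any low scan (411) was left out. A gene is the mean of its features. Genes were named through the platform annotation (29033 features with 1 symbol, 97 with several and 15160 with none), and 28992 symbols were updated through RefSeq. The model was fitted with lmFit and eBayes, with no covariate, and p-values were adjusted by the Benjamini-Hochberg method over all 17910 genes. The fit was tested on simulated data before use. The number of arrays limits the precision, and the depth of signal over background is unknown because no intensities were used.

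Members and lists were chosen with earlier results of these data known, and lists are described by counts and medians with no test. Named with values in every pool were the members past the threshold, the largest rise and fall in each complex, members whose features differ in sign, SDHA, and in other lists up to 4 genes past the threshold. Further members are named to account for all 53. NDUFB6, NDUFB10, NDUFV2, COX6C, ATP5PO and UQCRQ's single features were given in more detail, and the regulators and printed promoters chosen, after their values were seen, and a further variant of the NRF1 letters was looked at and dropped. Alternatives covered the scans, centring, quantile scaling, missing values, the summary of features, robust variance, the fold minimum, the replicate block and each pool left out.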

Additional observations from a re-analysis of the deposited data

How the results depend on the processing

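The count of 3 members lower past the threshold was 1 with repeated values kept (all genes 0.868%). It was 5 from the low scan only (all genes 1.36%) and 0 from the high scan only (42 members tested, all genes 1.01%). It was 15 with no fold minimum (all genes 3.67%), 0 with a fold over 1.5 and 5 with each feature alone (all features 0.935%). With one pool left out it lay between 1 (MB452 pool B left out) and 6 (control pool B left out, where 1.92% of all genes were lower past the threshold). Without control pool A the count was 3 (5.66%), but 1361 of 17910 genes (7.60%) were lower past the threshold there, so the members' share was below that of the array. No setting gave a member higher past the threshold (count 0 throughout). The members of negative sign numbered 36 of 42 from the high scan only and 48 to 51 of 53 in the other settings with all pools and features, and with one pool left out between 40 (MB452 pool B) and 52 (MB452 pool A). With features holding the repeated value left out, an alternative chosen after seeing the data, 39 of 42 were negative. Of these 42 members, 2 were lower past the threshold (all genes 0.862%). With one pool left out the median log2 fold change of all members lay between -0.175 (MB452 pool A) and -0.082 (MB452 pool B), that of complex I between -0.18 and -0.112, that of complex II between -0.175 (MB452 pool A) and 0.01 (MB452 pool B), that of complex III between -0.123 (MB452 pool A) and -0.032 (MB452 pool B), that of complex IV between -0.15 (control pool B) and -0.087 (control pool A) and that of complex V between -0.178 (MB452 pool A) and -0.076 (MB452 pool B). The median of complex IV was also -0.077 with repeated values kept, -0.086 after quantile scaling, and, with 5 genes left to test, -0.008 from the high scan only and -0.011 with features holding the repeated value left out. The signs of some small differences turned. COX4I1 was 0.067 and NDUFS1 0.074 from the high scan only, NDUFS1 was 0.02 and UQCRB 0.131 after quantile scaling, UQCRB was 0.036 from the low scan only, CYCS was 0.04 with the median over features and COX4I1 was 0.075 with features holding the repeated value left out. With one pool left out ATP5F1D lay between -0.122 and 0.018, COX7B between -0.025 and 0.196, NDUFS1 between -0.133 and 0.11, SDHD between -0.175 and 0.01 and UQCRB between -0.122 and 0.104. The cause of these changes was not tested. With the replicate block, the pool letter taken as a pair, 3 members were again lower past the threshold (all genes 1.57%). Deviations of pools of the same letter correlated at -0.032 over genes, so the letters only name the pools. A group left with 1 pool is assumed to vary like the other.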

Other observations

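The reference was made from all wells, yet the median log2 ratio of the 53 members was above 0 in every pool, at 0.11 and 0.02 in MB452 pools A and B and at 0.22 and 0.18 in control pools A and B. That of the 30 further subunits was too, at 0.17 and 0.06 in MB452 pools A and B and at 0.24 and 0.26 in control pools A and B. Within the members, the median of complex V was -0.03 in MB452 pool B. Every pool was in Cy5 and the reference in Cy3, and the cause was not tested. The highest ratios were those of COX6C, which lay between 0.55 and 0.82 over the 4 pools, and UQCRB, between 0.38 and 0.60.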
